A study of Mus musculus with 6 samples.

Results

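The genes described here are 50 genes of glucose metabolism and the hypoxia response: glucose transporters, the enzymes of glycolysis and their regulators, lactate dehydrogenases and lactate carriers, the pyruvate dehydrogenase complex and its kinases, the pentose phosphate pathway, gluconeogenic enzymes, and the hypoxia-inducible factors with some of their sensors and targets. They were chosen by gene name, and all 50 were found among the 33924 gene names of the count table. Expression was measured by bulk RNA sequencing of total RNA from FVB/NJ mice, an inbred strain. Control libraries (replicates 1, 2 and 3) came from normal lung of mice, labelled as harvested at 6 months, in a series where mice received saline or the carcinogen urethane. Tumour libraries (replicates 1, 2 and 4) came from urethane-induced lung tumours, with the same harvest label. Urethane was given by intraperitoneal injection at 1 g per kg. No transgene, sex or age is stated, and neither is how tumour was separated from lung. Sex could be read only from sex-linked genes, which set tumour replicate 2 apart as female. The labels do not state that the libraries of a group are from separate animals, so p-values measure the spread between these libraries, which may in part be technical.

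Glucose enters cells through transporters of the SLC2 (GLUT) family, is trapped by hexokinases and is split by the glycolytic enzymes into pyruvate. Pyruvate is either reduced to lactate by lactate dehydrogenase and exported by monocarboxylate carriers, or oxidised in mitochondria by pyruvate dehydrogenase, which pyruvate dehydrogenase kinases switch off. The pentose phosphate pathway branches off at glucose 6-phosphate and yields NADPH and ribose 5-phosphate. When oxygen is short, the HIF alpha subunits HIF-1α (gene Hif1a) and HIF-2α (gene Epas1) escape hydroxylation by the EGLN prolyl hydroxylases and switch on targets that include many glycolytic genes. In lung, Epas1 is known for its high expression in endothelial cells, and AT2 cells, the surfactant-making cells of the alveolus, use glucose for lipid synthesis.

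Values are CPM, deposited read counts scaled to library size with TMM factors, and are listed by replicate, control 1, 2 and 3 and then tumour 1, 2 and 4. Fold changes are tumour against control on the log2 scale with their standard error (SE), n = 3 libraries per group. A gene rose or fell where edgeR's quasi-likelihood test, adjusted by the Benjamini-Hochberg method over the 20001 genes tested, gave an adjusted p under 0.05, and every adjusted p below is from that test unless another tool is named. All 50 members passed the filter on low counts and were tested.

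Of the 50 members, 24 rose in the tumours, 7 fell and 19 did not pass the test. Across all genes tested, 42.0% were called, 18.1% higher and 23.8% lower. The members' shares were 48.0% higher and 14.0% lower, so the called members were mostly rises while calls over all genes were mostly falls. The median log2 fold change was 0.57 over the members and 0.01 over all genes tested. CPM of the groups did not overlap for 35 members, 26 with all tumours above all controls and 9 with all tumours below. Over all genes tested the groups did not overlap for 56.0%, with tumours above in 26.1% and below in 29.9%. Among the called members, 14 rose by 2-fold or more and 5 fell by 2-fold or more. The 24 rises included Hk2, Pfkl, Tpi1, Gapdh, Eno1, Ldha, the lactate carrier gene Slc16a1 and both fructose bisphosphatase genes, and the 7 falls were Slc2a4, Pfkp, Pfkfb3, Eno3, Slc16a3, Adm and Epas1, of which Pfkfb3 and Slc16a3 fell by less than 2-fold. Summed over the 16 members that encode glycolytic enzymes, from hexokinase to enolase, CPM was 621, 731 and 632 in the controls and 1397, 1231 and 916 in the tumours. Every tumour sum lay above every control sum.

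**Figure D1:**
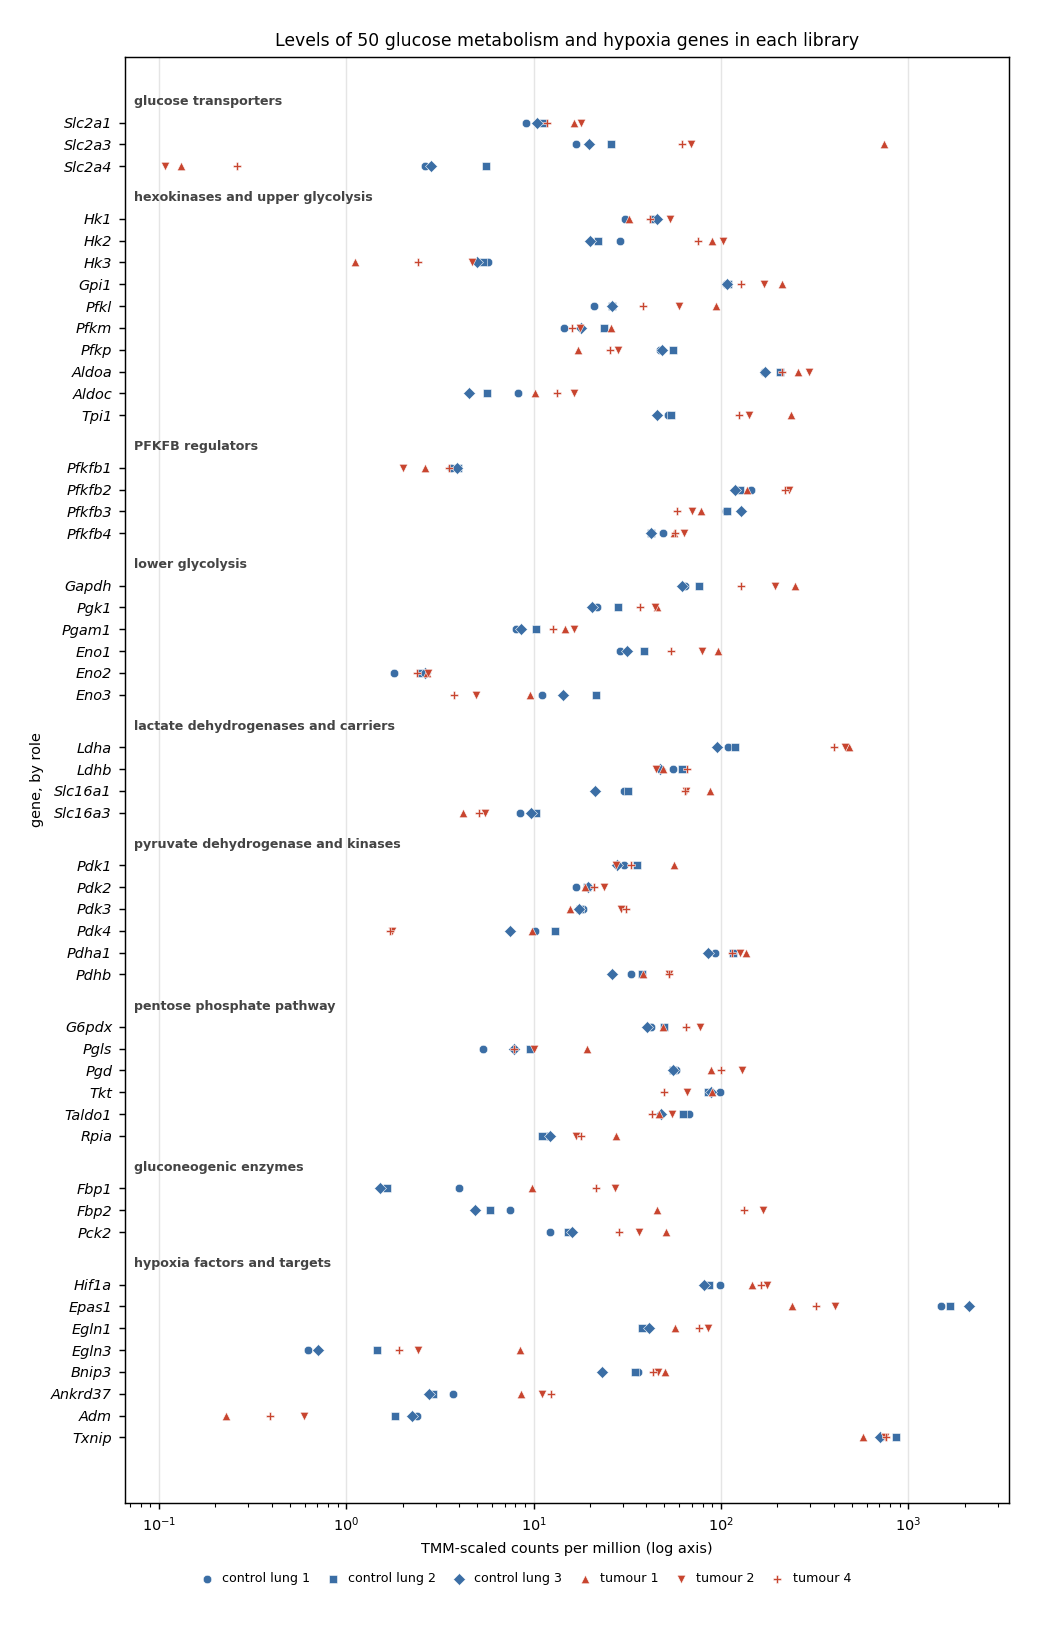
CPM of each of the 50 members on a log axis in the 3 control libraries (blue circle, square and diamond for replicates 1, 2 and 3) and the 3 tumour libraries (red symbols for replicates 1, 2 and 4), grouped by role. Ldha, Tpi1, Gapdh and Fbp2 show the tumour points well to the right of the control points, Epas1 and Slc2a4 show them well to the left, and for Slc2a3 tumour replicate 1 stands far to the right of the other tumours.

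Promoter sequences are printed for members that rose and whose products have different functions: hexokinase 2, lactate dehydrogenase A, the lactate carrier, fructose bisphosphatase 2 and HIF-1α, with the liver-type phosphofructokinase as a member that rose without the searched letters. HIF factors bind DNA at a short core that includes the letters ACGTG, which were searched on both strands. Each line runs 5′ to 3′ over the 250 bases before a transcription start given by RefSeq (build GRCm38.p6), with ACGTG or its reverse complement CACGT in capitals. The palindrome CACGTG, an E-box that other factors also bind, holds both and counts as 2 overlapping matches. The stretches are chr6:82774455-82774704, minus strand, for Hk2, chr10:78009808-78010057, minus strand, for Pfkl, chr7:46845554-46845803, plus strand, for Ldha, chr3:104638414-104638663, plus strand, for Slc16a1, chr13:62858401-62858650, minus strand, for Fbp2, and chr12:73907617-73907866, plus strand, for Hif1a.
Hk2: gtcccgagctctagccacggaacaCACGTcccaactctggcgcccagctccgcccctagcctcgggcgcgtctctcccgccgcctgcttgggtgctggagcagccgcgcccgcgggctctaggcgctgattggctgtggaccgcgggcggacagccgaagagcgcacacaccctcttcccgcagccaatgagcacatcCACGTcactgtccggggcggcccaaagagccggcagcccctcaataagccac
Pfkl: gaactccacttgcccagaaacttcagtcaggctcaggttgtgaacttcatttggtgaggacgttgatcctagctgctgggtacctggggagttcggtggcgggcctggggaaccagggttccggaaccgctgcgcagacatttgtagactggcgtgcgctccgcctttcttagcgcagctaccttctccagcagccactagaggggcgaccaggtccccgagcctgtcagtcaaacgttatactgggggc
Ldha: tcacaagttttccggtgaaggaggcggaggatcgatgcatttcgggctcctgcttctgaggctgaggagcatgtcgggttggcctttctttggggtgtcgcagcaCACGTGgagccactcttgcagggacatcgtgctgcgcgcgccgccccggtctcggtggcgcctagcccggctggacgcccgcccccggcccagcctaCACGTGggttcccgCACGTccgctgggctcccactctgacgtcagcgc
Slc16a1: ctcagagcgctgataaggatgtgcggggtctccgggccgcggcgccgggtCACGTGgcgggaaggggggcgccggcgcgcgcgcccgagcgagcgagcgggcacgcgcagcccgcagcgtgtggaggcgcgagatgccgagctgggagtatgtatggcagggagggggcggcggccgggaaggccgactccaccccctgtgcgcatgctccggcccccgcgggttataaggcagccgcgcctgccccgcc
Fbp2: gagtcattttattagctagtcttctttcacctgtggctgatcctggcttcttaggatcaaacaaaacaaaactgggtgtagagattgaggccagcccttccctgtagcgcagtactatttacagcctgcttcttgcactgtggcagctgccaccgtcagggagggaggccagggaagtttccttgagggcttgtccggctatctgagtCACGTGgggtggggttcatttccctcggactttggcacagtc
Hif1a: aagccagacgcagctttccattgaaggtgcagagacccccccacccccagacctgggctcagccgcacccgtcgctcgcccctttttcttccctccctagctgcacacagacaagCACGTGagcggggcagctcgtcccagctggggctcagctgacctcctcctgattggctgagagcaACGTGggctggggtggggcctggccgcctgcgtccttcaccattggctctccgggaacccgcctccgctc
Counting all overlapping matches, these 250 bases held 5 matches in Ldha, 3 in Hif1a, 2 each in Hk2, Slc16a1 and Fbp2 and 0 in Pfkl. RefSeq gives Ldha another start, whose stretch (chr7:46846832-46847081, plus strand) is not printed and held 0 matches, and the other 5 genes have 1 start each in the table. RefSeq windows of 300 bases, which add the first 50 bases after the start, were matched for 47 of the 50 members, with 66 windows in all, and none was matched for Slc2a3, Slc2a4 and Epas1. ACGTG was present in at least 1 window of 25 of the 47 members (53.2%), against 27.2% of the 11716 tested genes with a window and 21.8% of all 27025 genes with a window. By call, it was present in 14 of 23 members that rose, 2 of 5 that fell and 9 of 19 that did not pass the test. The longer CACGTG was present in 9 of the 47 members (19.1%) and in 10.8% of the tested genes with a window. These are matches of letters in a window; binding was not measured.

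Glucose transporters gave 1 rise, 1 fall and 1 member short of the threshold. Slc2a3 (chr6:122677827-122751658 in mm9), which encodes the high-affinity transporter GLUT3, stood at 17.0, 25.8 and 19.7 CPM in the controls and 746, 69.1 and 61.9 CPM in the tumours. All 3 tumours lay above all 3 controls, and tumour replicate 1 was 11.4 times the mean of the other tumours. Its log2 fold change was 3.81 ± 0.96 (SE) with an adjusted p = 0.0134. Without tumour replicate 1 the log2 fold change was 1.69 (adjusted p = 0.000109), and without control replicate 1 or control replicate 3 the adjusted p was 0.0544 and 0.0688. DESeq2 gave this gene no adjusted p. Markers of macrophages, a cell type that also uses GLUT3, summed to 386 CPM in tumour replicate 1, the lowest of the 3 tumours, while proliferation genes summed to 509 CPM there, the highest. In the macrophage sum Chil3 was the largest part in tumours 2 and 4 (140, 1272 and 829 CPM in tumours 1, 2 and 4). C1qa was highest in tumour replicate 1 (23.4, 22.2 and 13.2 CPM). C1qa, C1qb and Cd14 were lowest in tumour replicate 4, and the other listed macrophage markers in tumour replicate 1. Whether macrophages or proliferation had a part in the Slc2a3 level was not tested.

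Slc2a1, which encodes the basal transporter GLUT1, stood at 9.16, 11.2 and 10.4 CPM in the controls and 16.5, 18.0 and 11.8 CPM in the tumours. The groups did not overlap, but the log2 fold change of 0.59 ± 0.21 (SE) missed the threshold (adjusted p = 0.0511). It passed without tumour replicate 4 (adjusted p = 0.0234), with DESeq2 (adjusted p = 0.0296) and with upper-quartile scaling (adjusted p = 0.0385). Slc2a4 (chr11:69756045-69761690 in mm9), which encodes GLUT4, the insulin-responsive transporter of muscle and fat, stood at 2.64, 5.59 and 2.84 CPM in the controls and 0.131, 0.108 and 0.260 CPM in the tumours. Each tumour was below each control, and the log2 fold change of -4.48 ± 0.51 (SE; adjusted p = 0.00026), a level 22.4-fold lower by the fit, was the largest fall among the 50 members.

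Cardiac muscle genes, which mark the sleeves of heart muscle around mouse lung veins, moved with Slc2a4: 12 of 12 fell, and their summed level was 355 to 1705 CPM in the controls and 34.6 to 55.6 CPM in the tumours. Of 11 skeletal muscle genes, 6 were tested and 4 fell, with sums of 7.82 to 14.3 CPM and 2.76 to 4.90 CPM. Myl1 had 10, 50 and 15 reads in the controls and 0 in each tumour, Myh4 was at 0 in all 6 libraries and Myh2 had at most 2 reads in any, while Tnni2 and Atp2a1 did not pass (log2 fold changes of 0.02 and -0.17). Of 10 adipocyte genes, 5 were tested and 2 fell, with sums of 81.6 to 99.7 CPM and 53.8 to 81.5 CPM, and Adipoq, Cfd and Lep, which were too low to be tested, had 0 to 13, 4 to 84 and 0 to 4 reads in the controls and 0 in each tumour. The part of muscle or fat tissue in the Slc2a4 value was not tested. In bulk RNA, fewer cells of a type and less RNA per cell cannot be told apart.

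In upper glycolysis, from hexokinase to triose phosphate isomerase, 5 of 10 members rose, 1 fell and 4 did not pass the test, with a median log2 fold change of 0.57. Hk2 (chr6:82675019-82724448 in mm9), the inducible hexokinase whose promoter is printed above, stood at 29.0, 22.02 and 20.003 CPM in the controls and 90.2, 102 and 75.6 CPM in the tumours. The tumours lay well above the controls, 3.78-fold by the fit (1.92 ± 0.19 (SE) on the log2 scale, adjusted p = 0.000149). Hk1, the widely expressed hexokinase, overlapped between the groups with 30.8, 43.5 and 45.5 CPM in the controls and 32.5, 53.6 and 41.9 CPM in the tumours, a log2 fold change of 0.10 ± 0.23 (SE; adjusted p = 0.766) whose sign flipped without scaling beyond the library totals.

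Hk3, the hexokinase typical of myeloid cells, stood at 5.71, 5.36 and 5.02 CPM in the controls and 1.11, 4.69 and 2.41 CPM in the tumours. All tumours were below all controls, with tumour replicate 2 close to them. The log2 fold change of -0.97 ± 0.47 (SE) did not pass (adjusted p = 0.131), and without tumour replicate 2 it was -1.61 (adjusted p = 0.0126). Neutrophil genes fell in 8 of the 9 tested (10 listed), with summed levels of 372 to 550.4 CPM in the controls and 9.53, 56.6 and 15.6 CPM in the tumours. Macrophage and monocyte genes gave 3 rises and 3 falls among 13, with sums of 569 to 1701 CPM in the controls and 386, 1860 (tumour replicate 2) and 1338 CPM in the tumours. Hk3 and both marker sums were highest in tumour replicate 2 among the tumours, and the part of myeloid cells in Hk3 was not tested.

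Gpi1, which converts glucose 6-phosphate to fructose 6-phosphate, averaged 108 ± 1.82 CPM in the controls and 170.0 ± 41.3 CPM in the tumours (SD, n = 3), and rose by 0.66 ± 0.19 (SE; adjusted p = 0.0253). The call was lost when any 1 control was left out (adjusted p = 0.0737 to 0.0752). Phosphofructokinase, which commits the sugar to glycolysis, has 3 genes, and they went different ways. Pfkl, the liver-type gene, stood at 20.98, 26.4 and 26.3 CPM in the controls and 94.5, 60.1 and 38.5 CPM in the tumours, while Pfkp, the platelet-type gene, stood at 47.5, 55.4 and 48.4 CPM and 17.2, 28.1 and 25.5 CPM. Neither pair of groups overlapped: Pfkl rose by 1.39 ± 0.30 (SE; adjusted p = 0.00682) and Pfkp fell, with a log2 fold change of -1.09 ± 0.20 (SE; adjusted p = 0.00304). The muscle-type gene Pfkm overlapped, with 14.5, 23.8 and 17.8 CPM in the controls, 26.0, 17.7 and 16.1 CPM in the tumours and a log2 fold change of 0.09 ± 0.25 (SE; adjusted p = 0.795).

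Aldolase splits the 6-carbon sugar. Aldoa, the main gene by level per length in both groups, stood at 171, 206 and 172 CPM in the controls and 257, 296 and 212 CPM in the tumours. The tumours lay above the controls, but the log2 fold change of 0.48 ± 0.18 (SE) missed the threshold (adjusted p = 0.0594). DESeq2 called it (adjusted p = 0.0388), as did the test without tumour replicate 1 (adjusted p = 0.0483). Aldoc, the brain-type aldolase, rose by 1.12 ± 0.29 (SE; adjusted p = 0.0138) from 8.23, 5.62 and 4.53 CPM to 10.2, 16.5 and 13.3 CPM, and the call was lost without control replicate 2 or control replicate 3 (adjusted p = 0.0597 and 0.0598). Tpi1, which interconverts the triose phosphates, stood at 52.4, 54.5 and 45.7 CPM in the controls and 238, 141 and 125 CPM in the tumours. Its lowest tumour was over all controls, and it rose by 1.72 ± 0.25 (SE; adjusted p = 0.000926), 3.30-fold.

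The PFKFB enzymes set the level of fructose 2,6-bisphosphate, the allosteric activator of phosphofructokinase. Of the 4 genes, 1 rose, 1 fell and 2 did not pass. Pfkfb3, the isoform with the strongest kinase activity, stood at 106, 107 and 128 CPM in the controls and 78.0, 69.8 and 58.3 CPM in the tumours. All tumours were lower, and Pfkfb3 fell with a log2 fold change of -0.73 ± 0.16 (SE; adjusted p = 0.00746). Pfkfb4 stood at 49.0, 42.4 and 42.4 CPM and 55.9, 63.6 and 56.9 CPM, and rose by 0.40 ± 0.14 (SE; adjusted p = 0.047). Its groups did not overlap, but leaving out any 1 library other than tumour replicate 1 ended the call (adjusted p = 0.0605 to 0.151). Pfkfb2, the heart-type gene, stood at 144, 127 and 119 CPM in the controls and 139, 231 and 220.3 CPM in the tumours. Tumour replicate 1 lay among the controls and the other tumours above them, with a log2 fold change of 0.59 ± 0.21 (SE; adjusted p = 0.0545). Without tumour replicate 1 it was 0.82 (adjusted p = 0.00201). Pfkfb1, the liver-type gene, stood at 3.61, 3.95 and 3.92 CPM and 2.65, 2.01 and 3.54 CPM, all tumours below all controls, with -0.49 ± 0.29 (SE; adjusted p = 0.208), short of the threshold.

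In lower glycolysis, from glyceraldehyde 3-phosphate dehydrogenase to enolase, 4 of 6 members rose and 1 fell, with a median log2 fold change of 0.77. Gapdh, often taken as a constant reference gene, stood at 64.0, 76.8 and 61.6 CPM in the controls and 250.02, 194 and 128 CPM in the tumours. Each tumour was above each control, and Gapdh rose by 1.499 ± 0.25 (SE; adjusted p = 0.00167), 2.83-fold. Pgk1, which makes the first ATP of the pathway, rose by 0.84 ± 0.18 (SE; adjusted p = 0.00548), from 21.8, 28.3 and 20.5 CPM in the controls to 45.6, 44.2 and 36.8 CPM in the tumours. Pgam1, which moves the phosphate of phosphoglycerate, stood at 8.10, 10.3 and 8.59 CPM and 14.7, 16.5 and 12.6 CPM and rose by 0.69 ± 0.19 (SE; adjusted p = 0.0196). The Pgam1 call was lost without control replicate 1, control replicate 3 or tumour replicate 2 (adjusted p = 0.0751, 0.0599 and 0.0636).

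Enolase, which makes phosphoenolpyruvate, split between its genes. Eno1, the ubiquitous gene, stood at 28.9, 38.9 and 31.4 CPM in the controls and 96.1, 79.1 and 54.0 CPM in the tumours, whereas Eno3, the muscle gene, stood at 11.1, 21.6 and 14.3 CPM and 9.52, 4.94 and 3.78 CPM. For both, the groups did not overlap. Eno1 rose by 1.21 ± 0.23 (SE; adjusted p = 0.00352) and Eno3 fell, with a log2 fold change of -1.36 ± 0.39 (SE; adjusted p = 0.0219). The Eno3 call was lost without control replicate 2, control replicate 3, tumour replicate 2 or tumour replicate 4 (adjusted p = 0.056 to 0.0942). In the controls Eno3 was highest in replicate 2, the library in which the cardiac muscle sum was highest. In the tumours it was highest in replicate 1, the library in which that sum was lowest (34.6 CPM, against 55.6 and 54.4 CPM). The skeletal muscle sum was highest in tumour replicate 1 (4.90 CPM, against 2.95 and 2.76 CPM). Single cardiac genes also differed, with Myh6 lowest there (7.57, 30.0 and 22.9 CPM) and Pln highest (6.21, 3.14 and 4.77 CPM). The part of muscle in Eno3 was not tested. Eno2, the neuronal gene, overlapped at 2.31 ± 0.456 CPM in the controls and 2.60 ± 0.190 CPM in the tumours (SD, n = 3; log2 fold change 0.17 ± 0.28 (SE), adjusted p = 0.662).

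Several of these genes have close copies, so reads may have been assigned to the wrong copy or lost. The share of 32-base words of the transcript that also occur in another gene was 77.0% for Eno1, 74.1% for Bnip3, 68.3% for Pgk1, 42.1% for Pgam1 and 40.5% for Ldhb. It was 33.2% for Ldha, 32.9% for Aldoa, 31.6% for Gapdh, 27.5% for Pfkfb2, 21.7% for Taldo1 and 20.5% for Pdha1, and under 20% for the other 39 members. Values of these 11 genes are uncertain to that extent. Exons of other gene names covered 28.9% of the exon bases of Ankrd37, 20.6% of Pgls, 19.99% of Txnip, 16.5% of Gpi1, 16.0% of Pdha1, 15.6% of Slc16a3 and 13.6% of G6pdx, and under 10% for the other members, and with no strand setting such reads cannot be told apart.

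**Figure D2:**
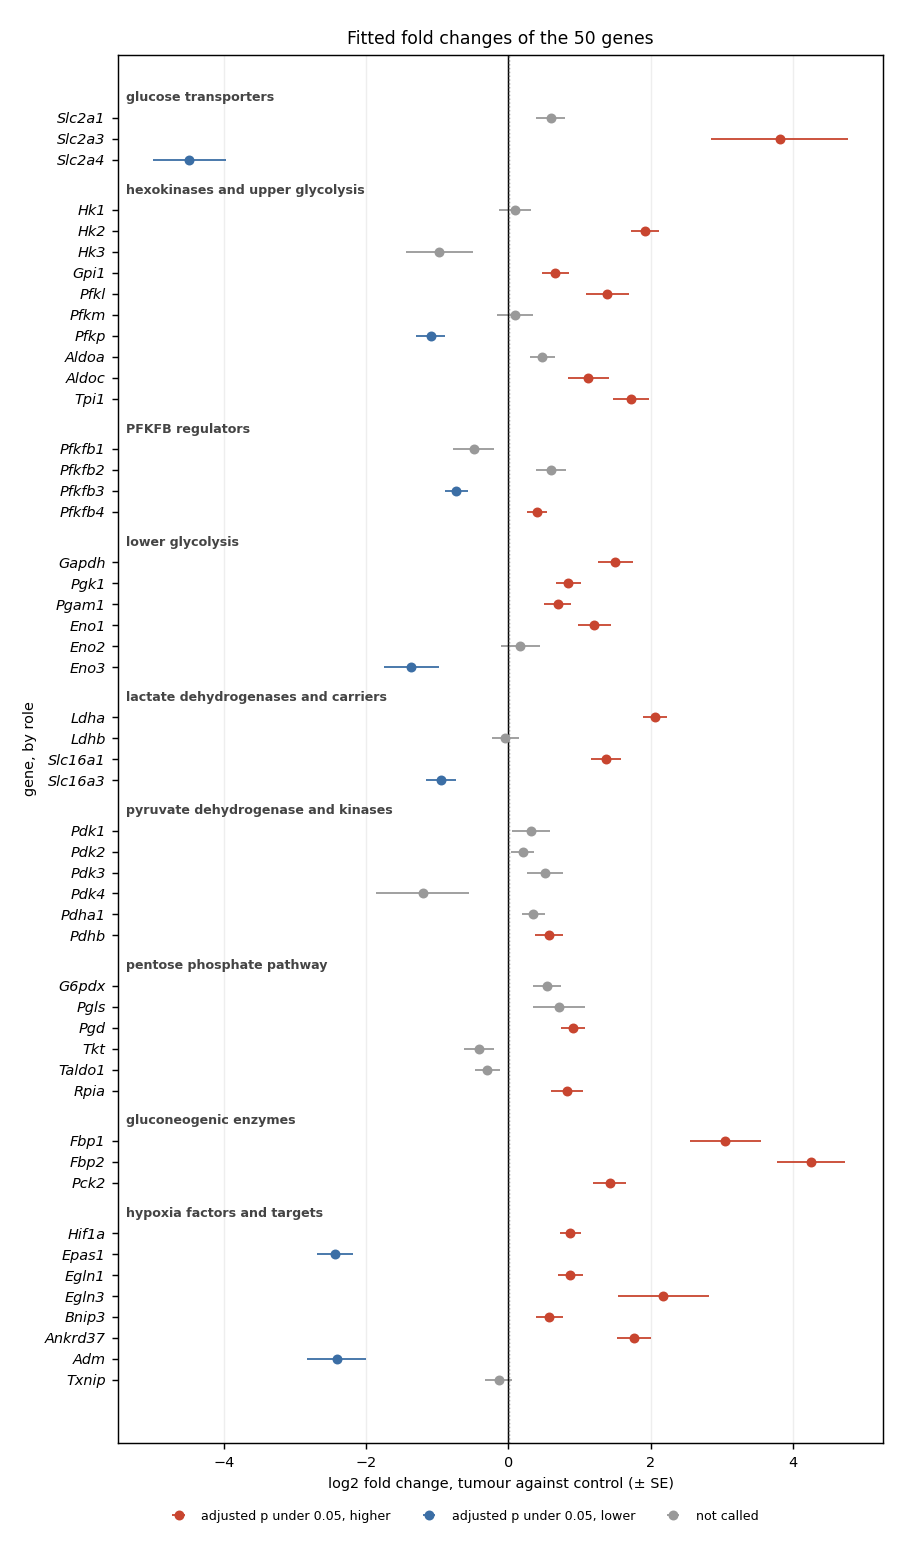
Log2 fold change, tumour against control, of the 50 members grouped by role, with bars of 1 SE (n = 3 libraries per group) and colours for members that rose, fell or did not pass the edgeR test. Fbp2 at 4.25 and Slc2a4 at -4.48 are the extremes, and all 3 gluconeogenic genes lie to the right of 0.

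The lactate step carried the member with the smallest p. Ldha (chr7:54096845-54110997 in mm9), which encodes the A subunit of lactate dehydrogenase, stood at 109, 118 and 95.2 CPM in the controls and 482, 463 and 402 CPM in the tumours. The 3 tumours lay close together and far above the controls, and Ldha rose by 2.06 ± 0.17 (SE; adjusted p = 5.28e-05), 4.18-fold. Of its 2 RefSeq starts, the one printed above had 5 ACGTG matches in the preceding stretch and the other had 0. Ldhb, which encodes the B subunit, overlapped between the groups at 55.8, 62.1 and 47.1 CPM in the controls and 49.4, 45.0 and 65.7 CPM in the tumours (log2 fold change -0.04 ± 0.19 (SE), adjusted p = 0.872). Slc16a1, the gene of the lactate carrier MCT1, stood at 30.5, 32.1 and 21.3 CPM and 87.7, 65.0 and 64.2 CPM. All tumours were above all controls, and Slc16a1 rose by 1.37 ± 0.21 (SE; adjusted p = 0.00113). Slc16a3, the gene of the lactate exporter MCT4 and a known HIF-1 target, stood at 8.48, 10.3 and 9.73 CPM in the controls and 4.20, 5.50 and 5.12 CPM in the tumours. The groups did not overlap and Slc16a3 fell, with a log2 fold change of -0.95 ± 0.21 (SE; adjusted p = 0.0076).

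At the entry of pyruvate into mitochondria, 1 of 6 members rose and none fell, with a median log2 fold change of 0.34. Pdhb, the beta subunit of pyruvate dehydrogenase, stood at 33.3, 38.0 and 26.2 CPM in the controls and 38.5, 52.8 and 53.0 CPM in the tumours. The tumours were above the controls by a small margin, with a rise of 0.57 ± 0.20 (SE; adjusted p = 0.048) that was lost without any 1 library other than tumour replicate 1 (adjusted p = 0.0531 to 0.13). Pdha1, the alpha subunit, stood at 93.0, 117 and 85.8 CPM and 136, 126 and 114 CPM, with 1 tumour below the highest control (0.35 ± 0.16 (SE), adjusted p = 0.123). Among the kinases that inactivate the complex, Pdk1, a HIF-1 target, stood at 30.3, 35.7 and 27.7 CPM in the controls and 56.4, 27.6 and 33.1 CPM in the tumours, with tumour replicate 1 alone above the controls. Its log2 fold change was 0.32 ± 0.27 (SE; adjusted p = 0.369), and -0.01 without that library. Pdk2 averaged 18.5 ± 1.45 CPM and 21.3 ± 2.47 CPM (SD, n = 3) and overlapped between the groups (adjusted p = 0.35). In Pdk3 and Pdk4, tumour replicate 1 stood apart from the other tumours. Pdk3 stood at 18.3, 17.7 and 17.5 CPM in the controls and 15.6, 29.3 and 31.2 CPM in the tumours (0.51 ± 0.25 (SE), adjusted p = 0.144). Pdk4, the fasting-induced kinase, stood at 10.2, 12.9 and 7.51 CPM and 9.78, 1.76 and 1.71 CPM (-1.21 ± 0.65 (SE), adjusted p = 0.176). Without tumour replicate 1 the values were 0.79 for Pdk3 (adjusted p = 0.00122) and -2.52 for Pdk4 (adjusted p = 0.000154).

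In the pentose phosphate pathway, 2 of 6 members rose and none fell, with a median log2 fold change of 0.62. The oxidative branch starts with G6pdx, the rate-limiting glucose 6-phosphate dehydrogenase, at 42.2, 49.6 and 40.2 CPM in the controls and 49.1, 77.7 and 65.4 CPM in the tumours. Tumour replicate 1 lay within the control range and the other tumours above it. The log2 fold change of 0.54 ± 0.19 (SE) missed the threshold (adjusted p = 0.0531), and it was 0.73 without that library (adjusted p = 0.00366). DESeq2 called it (adjusted p = 0.0456). Pgls, which encodes the lactonase that follows, averaged 7.59 ± 2.09 CPM and 12.4 ± 6.07 CPM (SD, n = 3), with the highest value in tumour replicate 1 (adjusted p = 0.158). Pgd, the gene of 6-phosphogluconate dehydrogenase and of the second NADPH-yielding step, stood at 57.8, 55.6 and 55.8 CPM in the controls and 88.2, 129.7 and 99.5 CPM in the tumours. All tumours were above the tightly grouped controls, and Pgd rose by 0.91 ± 0.17 (SE; adjusted p = 0.00333).

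In the non-oxidative branch, Rpia, which makes ribose 5-phosphate, stood at 11.8, 11.1 and 12.3 CPM in the controls and 27.5, 16.9 and 17.8 CPM in the tumours and rose by 0.82 ± 0.22 (SE; adjusted p = 0.0168). The groups did not overlap, and the call was lost when any 1 control was left out (adjusted p = 0.0506 to 0.0643). The 2 enzymes that return pentoses to glycolysis had negative estimates that did not pass. Tkt, transketolase, stood at 98.4, 85.2 and 88.8 CPM and 89.4, 65.7 and 49.9 CPM, with tumour replicate 1 above 2 of the controls (-0.41 ± 0.21 (SE), adjusted p = 0.161). Without that library it was -0.62 (adjusted p = 0.0152). Taldo1, transaldolase, averaged 59.3 ± 10.4 CPM in the controls and 48.2 ± 5.86 CPM in the tumours (SD, n = 3; -0.30 ± 0.18 (SE), adjusted p = 0.209).

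All 3 gluconeogenic members rose, and the rise of Fbp2 was the largest among the 50. Fructose bisphosphatases run the phosphofructokinase step backwards. Fbp2 (chr13:62938244-62959760 in mm9), the isoform best known from muscle, stood at 7.53, 5.85 and 4.85 CPM in the controls and 45.6, 168 and 133 CPM in the tumours, and Fbp1, the liver and kidney isoform, at 3.99, 1.64 and 1.52 CPM and 9.81, 27.1 and 21.6 CPM. In both genes all tumours were above all controls and tumour replicate 1 was the lowest tumour. Fbp2 rose by 4.25 ± 0.48 (SE; adjusted p = 0.000243), 19.1-fold, and Fbp1 by 3.05 ± 0.50 (SE; adjusted p = 0.00169), 8.26-fold. Pck2, the mitochondrial phosphoenolpyruvate carboxykinase, stood at 12.2, 15.2 and 16.0 CPM and 51.2, 36.7 and 28.7 CPM and rose by 1.42 ± 0.23 (SE; adjusted p = 0.00172), with tumour replicate 1 the highest. AT2 markers, of which 11 of 12 rose, also had their lowest tumour sum in tumour replicate 1: 30534 CPM, against 68202 and 53091 CPM in tumour replicates 2 and 4 and 10593 to 17397 CPM in the controls. Sftpb, Abca3 and Etv5 did not follow this sum and were lowest in tumour replicate 4 (2953, 1312 and 179 CPM). In tumour replicate 1 they stood at 4196, 1386 and 271 CPM. The other listed AT2 markers were lowest in tumour replicate 1. The part of AT2 cells in the bisphosphatase levels was not tested.

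The hypoxia members gave 5 rises, 2 falls and 1 gene that did not pass, and the HIF alpha subunits were called in opposite directions. Epas1 (chr17:87153247-87232750 in mm9) stood at 1500.4, 1665 and 2102 CPM in the controls and 241, 408 and 322 CPM in the tumours, and Hif1a at 99.3, 86.0 and 81.3 CPM and 147, 176 and 163 CPM. Neither gene overlapped between the groups. Epas1 fell, with a log2 fold change of -2.44 ± 0.26 (SE; adjusted p = 0.000175), a level 5.42-fold lower, and Hif1a rose by 0.87 ± 0.15 (SE; adjusted p = 0.00212). Per kb of exon, Epas1 averaged 331 CPM in the controls and 61.0 CPM in the tumours, and Hif1a 15.1 and 27.5 CPM, so Epas1 remained the higher of the 2 in the tumours. All 15 endothelial markers fell beside Epas1, from a summed 3983 to 5354 CPM in the controls to 318 to 473 CPM in the tumours, and the part of endothelial cells was not tested.

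Of the prolyl hydroxylases that mark HIF alpha for degradation, Egln1 stood at 40.8, 38.1 and 41.2 CPM in the controls and 56.9, 85.6 and 76.9 CPM in the tumours and rose by 0.87 ± 0.17 (SE; adjusted p = 0.00468). Egln3, itself a HIF target, stood at 0.625, 1.46 and 0.711 CPM and 8.47, 2.41 and 1.91 CPM, highest in tumour replicate 1. It rose by 2.18 ± 0.64 (SE; adjusted p = 0.0254), by 1.23 without tumour replicate 1 (adjusted p = 0.0359), and the call was lost without control replicate 1 or control replicate 3 (adjusted p = 0.0873 and 0.101). Among the other targets, Ankrd37, an ankyrin repeat gene, stood at 3.72, 2.92 and 2.78 CPM in the controls and 8.57, 11.05 and 12.4 CPM in the tumours. Its groups were well apart and it rose by 1.76 ± 0.24 (SE; adjusted p = 0.000665). Bnip3, a mitophagy receptor gene, averaged 31.3 ± 7.05 CPM and 46.6 ± 3.33 CPM (SD, n = 3) and rose by 0.57 ± 0.19 (SE; adjusted p = 0.0412), a call lost without any 1 library other than tumour replicate 1 (adjusted p = 0.0501 to 0.0784).

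Adm, which encodes the vasodilator adrenomedullin, went the other way, at 2.39, 1.82 and 2.25 CPM in the controls and 0.229, 0.593 and 0.391 CPM in the tumours. All tumours were below 1 CPM and all controls above it, and Adm fell with a log2 fold change of -2.41 ± 0.41 (SE; adjusted p = 0.00211). Txnip, whose product restrains glucose uptake and whose transcription follows glucose supply, stood at 719.7, 863 and 707 CPM in the controls and 574, 756 and 757 CPM in the tumours. The groups overlapped, and the log2 fold change was -0.13 ± 0.19 (SE; adjusted p = 0.606).

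Because several steps have more than 1 gene, the level per kb of exon was summed over the genes of a step in each library, as a description with no test. The summed hexokinase level averaged 12.02 ± 0.345 CPM per kb in the controls and 27.3 ± 4.92 in the tumours (SD, n = 3), and lactate dehydrogenase 71.1 ± 8.70 and 184.7 ± 8.27. Enolase, summed over 4 genes, averaged 19.1 ± 4.41 and 19.5 ± 5.31, with Eno1 higher and Eno3 and the minor gene Eno4 lower in the tumours. This sum depends on the exon bases used as divisor, 5379 for Eno1 and 1689 for Eno3. Without that division Eno1 averaged 33.1 CPM in the controls and 76.4 CPM in the tumours, and Eno3 15.7 and 6.08 CPM. The near-equal sums per kb therefore do not show an unchanged step. Again per kb, phosphofructokinase averaged 17.1 ± 2.56 and 23.7 ± 7.64, the PFKFB genes 40.7 ± 1.59 and 43.9 ± 4.80, and the pyruvate dehydrogenase kinases 19.7 ± 1.34 and 22.9 ± 0.740. Fructose bisphosphatase averaged 5.99 ± 1.81 CPM per kb in the controls and 98.8 ± 52.9 in the tumours, and the HIF alpha subunits 347 ± 57.0 and 89.3 ± 17.8.

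The share of each gene in its step, given as a mean over 3 libraries in percent, described which isoform made up most of the summed level per kb. These shares depend on the exon bases used as divisor. Hk2 made up 32.9 ± 5.54% of hexokinase in the controls and 55.2 ± 6.65% in the tumours (SD), while Hk1 made up 39.1 ± 8.75% and 18.2 ± 2.07%. Pfkl made up 32.8 ± 2.38% of phosphofructokinase in the controls and 60.2 ± 7.61% in the tumours, and Pfkp 31.7 ± 2.63% and 11.8 ± 5.41%. Per kb, control lung thus had the 3 phosphofructokinase genes at similar levels, and in the tumours Pfkl led. By read counts Pfkp led in the controls with 54.0%, against 26.2% for Pfkl and 19.7% for Pfkm. In the tumours Pfkl led by counts too, with 57.8% against 23.6% for Pfkp. Eno1 made up 32.5 ± 2.47% of enolase in the controls and 72.8 ± 2.33% in the tumours, Eno3 47.6 ± 5.17% and 17.8 ± 4.27%, and Eno4, which also fell (log2 fold change -1.52 ± 0.30 (SE), adjusted p = 0.00401), 17.3 ± 2.59% and 6.44 ± 3.47%. By read counts Eno1 led in the controls as well, with 55.9% against 25.9% for Eno3. Ldha made up 50.7 ± 0.719% of lactate dehydrogenase in the controls and 81.4 ± 4.49% in the tumours. Per kb, Ldha and Ldhb were thus near parity in control lung, and Ldha led in each tumour. By read counts there was no parity in the controls, with 66.2% for Ldha and 33.8% for Ldhb. In the tumours the count share of Ldha was 89.2%. Slc16a1 made up 36.4 ± 2.87% of the monocarboxylate carriers in the controls and 56.3 ± 5.54% in the tumours, and Hif1a 4.46 ± 1.12% and 31.2 ± 3.50% of the HIF alpha subunits. Aldoa stayed the main aldolase, with 97.1 ± 0.919% and 95.7 ± 0.933%.

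**Figure D3:**
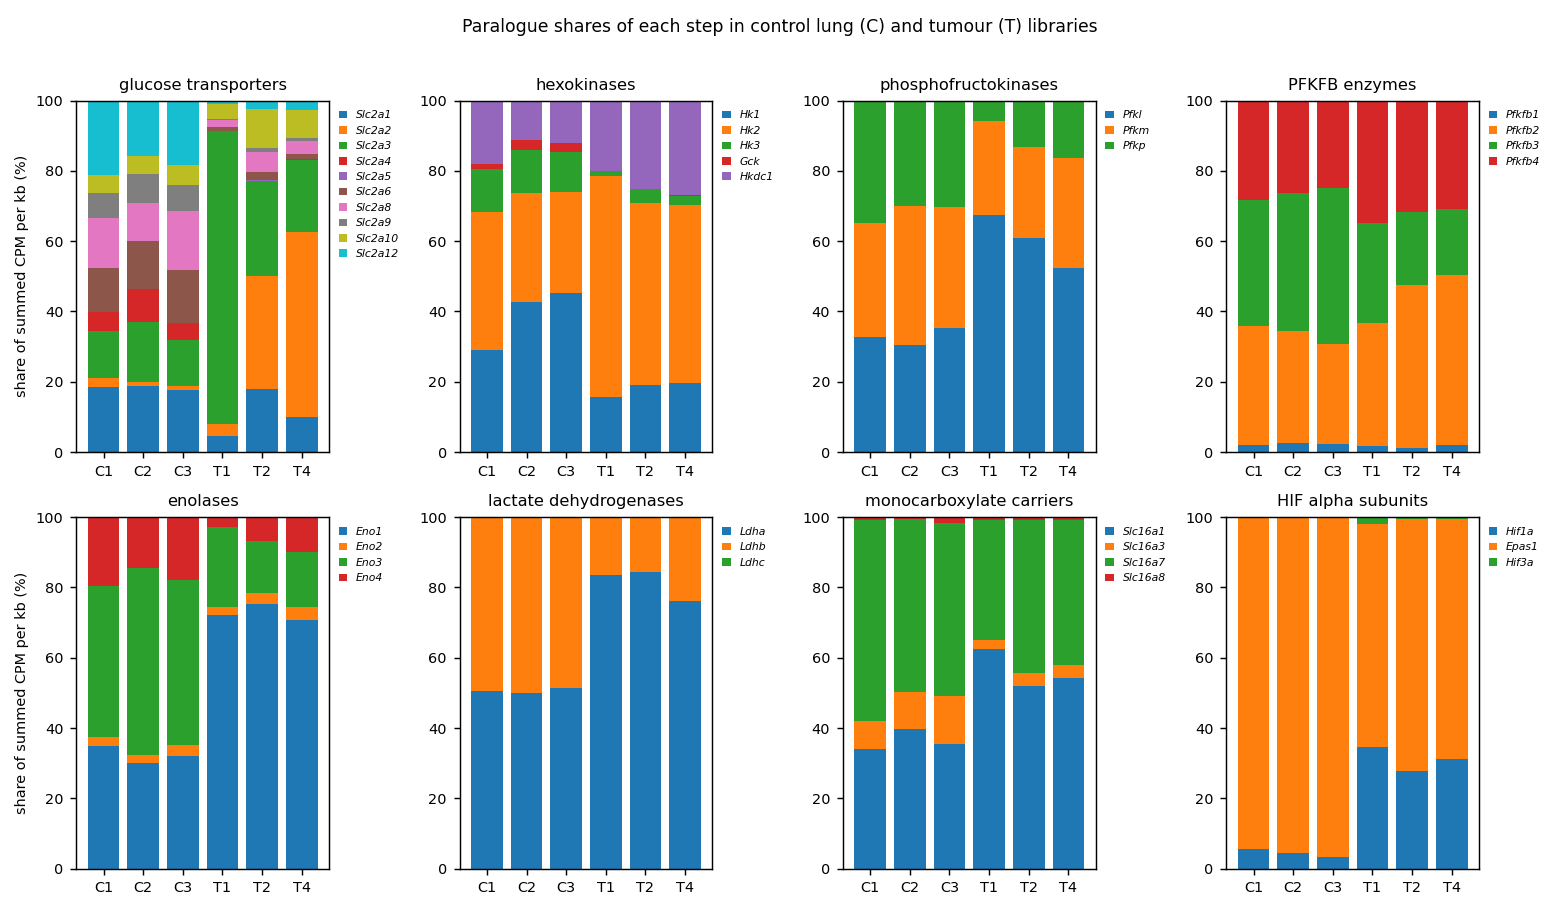
Share (percent) of each gene in the summed level per kb of exon of its step, as stacked bars for control libraries 1 to 3 (C1 to C3) and tumour libraries 1, 2 and 4 (T1, T2, T4), for 8 steps. Hk2, Pfkl, Eno1 and Ldha take a larger part of their bars in each tumour than in each control.

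Tumour libraries differed among themselves. Tumour replicate 1 was the highest of the 3 tumours in 21 of the 50 members and the lowest in 20, and tumour replicate 4 the highest in 7 and the lowest in 25. Among the 24 members that rose, tumour replicate 1 was highest in 13 and tumour replicate 4 lowest in 14. Over all genes tested, tumour replicate 1 was highest in 41.6% and lowest in 41.6%, and tumour replicate 4 was highest in 27.3% and lowest in 29.4%. The shares of tumour replicate 1 among the members, 42.0% and 40.0%, were near those of all genes. Tpi1, Gapdh, Pfkl, Eno1 and Gpi1 all ran in the order tumour 1, 2 and 4, whereas Fbp1, Fbp2, Pdk3, G6pdx, Pgd, Hif1a and Egln1 were higher in tumours 2 and 4 than in tumour 1.

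Outside the 50 members, 96 other genes of the same pathways were listed, of which 90 were tested; 29 rose and 21 fell, with a median log2 fold change of 0.19. Among 8 tested sugar transporters, 2 rose and 3 fell. Slc2a2, the gene of the low-affinity transporter GLUT2, stood at 1.25, 0.745 and 0.548 CPM in the controls and 11.5, 31.3 and 59.8 CPM in the tumours and rose by 5.36 ± 0.65 (SE; adjusted p = 0.000356), 41.0-fold. Without tumour replicate 4, its highest library, the log2 fold change was 4.68 (adjusted p = 0.000518). Slc2a10 rose by 2.03 ± 0.24 (SE; adjusted p = 0.000302) and Slc2a12 fell with -1.79 ± 0.21 (SE; adjusted p = 0.000274), as did Slc2a9 and Slc2a6 (-1.88 and -1.47). Summed per kb over 10 SLC2 genes, glucose transporter level was 17.4, 21.05 and 20.6 CPM per kb in the controls and 124, 35.3 and 41.4 in the tumours, above all controls in each tumour. Slc2a3 made up most of it in tumour replicate 1, whereas Slc2a2 made up 52.5% in tumour replicate 4. This lead of Slc2a2 depends on exon bases, 2752 for Slc2a2 and 7245 for Slc2a3. Without that division Slc2a3 and Slc2a2 stood at 61.9 and 59.8 CPM in tumour replicate 4, and at 69.1 and 31.3 CPM in tumour replicate 2.

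Of 25 tested genes of the list on glycolysis and pyruvate, 8 rose and 6 fell. Hkdc1, a hexokinase domain gene, rose by 1.997 ± 0.28 (SE; adjusted p = 0.00071), Gpd1, which links glycolysis to glycerol lipids, by 2.27 ± 0.18 (adjusted p = 4.98e-05), and Bsg, the chaperone of MCT1 and MCT4, by 1.26 ± 0.19 (adjusted p = 0.000955). Pkm, counted under its older name Pkm2, completes glycolysis. It stood at 131, 158 and 124 CPM in the controls and 277, 226 and 143 CPM in the tumours, with a log2 fold change of 0.65 ± 0.24 (SE; adjusted p = 0.0648), short of the threshold, and 49.8% of its words are shared with another gene. Bpgm, whose product makes 2,3-bisphosphoglycerate in red cells, had 0.27 ± 0.16 (SE; adjusted p = 0.206). Of 8 tested genes of the pentose phosphate and nucleotide sugar list, 4 rose and 1 fell: Pgm2 rose by 1.48 ± 0.14 (SE; adjusted p = 0.000105) and Prps2, which makes the ribose donor of nucleotides, by 1.27 ± 0.20 (adjusted p = 0.00129), while Pgm1 fell with -1.17 ± 0.18 (adjusted p = 0.00108). Pgm1 and Pgm2 are phosphoglucomutase genes, and both symbols are as in the count table, whose annotation is an older one. The Pgm1 that fell lies at chr5:64484175-64519594 and the Pgm2 that rose at chr4:99602019-99659899 in mm9. Newer annotation may use these 2 symbols otherwise, so the coordinates identify the genes.

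Of 10 tested genes of gluconeogenesis and glycogen, 3 rose and 2 fell. Gys1, glycogen synthase, rose by 1.30 ± 0.16 (SE; adjusted p = 0.000335), whereas Gyg, the primer of glycogen, fell with -2.12 ± 0.27 (adjusted p = 0.000457). Pygm, the muscle glycogen phosphorylase, fell with -3.78 ± 0.30 (SE; adjusted p = 4.74e-05), beside the cardiac muscle genes described above. Of 11 genes of hypoxia sensing, 3 rose and 1 fell. Cited2, which encodes a HIF-1 antagonist, rose by 1.80 ± 0.23 (SE; adjusted p = 0.000518) and Arnt2, a HIF partner gene, fell with -1.76 ± 0.32 (adjusted p = 0.00273). Vhl, whose product removes hydroxylated HIF alpha, rose by 0.57 ± 0.14 (adjusted p = 0.012). Arntl, a clock gene of the same protein family, rose by 2.05 ± 0.51 (SE; adjusted p = 0.0119), by 1.22 without tumour replicate 1 (adjusted p = 0.00324), and was lost without control replicate 3 (adjusted p = 0.0588).

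Of 28 hypoxia targets, 9 rose and 8 fell, with a median log2 fold change of 0.13. Vegfa, the angiogenic factor, stood at 341, 259.7 and 451 CPM in the controls and 158, 102 and 111 CPM in the tumours, all tumours below all controls. It fell with a log2 fold change of -1.50 ± 0.26 (SE; adjusted p = 0.00203). Edn1, Angptl4 and Stc2, the genes of 3 secreted factors, fell with -4.61 ± 0.22 (adjusted p = 1.09e-05), -2.26 ± 0.19 (adjusted p = 5.72e-05) and -3.05 ± 0.30 (adjusted p = 0.000138). These 3 had the smallest p of the list, and Vegfa was set by name. The 9 targets that rose had larger p than these 3 and are not named, so the named falls do not stand for the list. Car9, a carbonic anhydrase gene widely used as a hypoxia marker, stood at 2.01, 1.09 and 2.01 CPM in the controls and 2.08, 2.41 and 3.23 CPM in the tumours and did not pass (0.60 ± 0.35 (SE), adjusted p = 0.211).

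**Figure D4:**
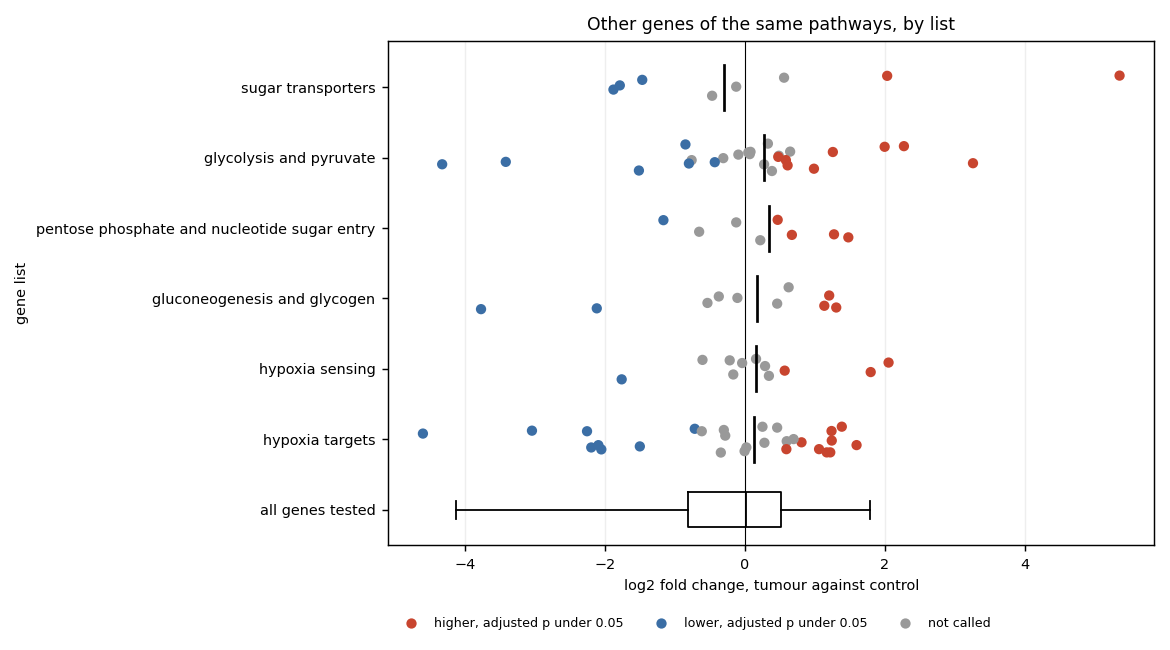
Log2 fold change, tumour against control, of the tested genes of 6 other lists of sugar transport, glycolysis, pentose phosphate, gluconeogenesis and glycogen, and hypoxia, 1 point per gene with a black bar at the list median, beside a box for all 20001 genes tested with whiskers at the 5th and 95th percentiles. Medians run from -0.30 for sugar transporters to 0.34 for the pentose phosphate list, with genes on both sides of 0 in each list.

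Library totals were 38996532 to 59037341 reads in the controls and 48509129 to 62336537 in the tumours, and the members took 0.377% to 0.506% of them. At these depths 3 counts correspond to 0.0456 to 0.0815 CPM. The Slc2a4 values in the tumours rest on 8, 6 and 12 reads, and those of Adm on 14, 33 and 18. Tumour replicate 2 differed in sex-linked genes, with 3359.8 CPM of Xist against at most 32.9 CPM in the other 5 libraries. Genes of the Y chromosome went the opposite way. Ddx3y, Uty, Eif2s3y and Kdm5d each had at most 0.216 CPM in tumour replicate 2 and at least 37.6 CPM in each other library. By these genes tumour replicate 2 was female and the other 5 libraries male, so it came from a different animal than tumour replicates 1 and 4. Whether the male libraries of a group are from separate animals is not shown by these genes. Members on the X chromosome are Pfkfb1, Pgk1, Pdk3, Pdha1 and G6pdx. Pgk1, the called one, rose by 0.81 (adjusted p = 0.017) without tumour replicate 2. Among markers not given above, 7 of 9 epithelial and 7 of 10 proliferation genes rose, the latter from 88.7 to 130.4 CPM summed in the controls to 509, 226 and 223 CPM in the tumours. All 7 club cell, all 8 ciliated cell and all 10 T, NK and B cell genes fell, as did 8 of 9 smooth muscle and pericyte genes (1 rose), 3 of 4 tested erythroid genes and 4 of 7 tested nerve and neuroendocrine genes.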

How the data were processed

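Bulk RNA sequencing libraries of mouse lung (3 controls) and lung tumour (3) were analysed from the deposited table of raw read counts per gene name. Reads over exons were counted by the authors with featureCounts 1.6.5 on GENCODE vM1, per the file headers, a read overlapping several names being counted for each, with no strand setting. The builds GRCm38 and mm9, STAR, limma, edgeR and R 3.6.0 are named in the submitters' processing notes; no STAR version is named there. Coordinates in the table are those of mm9. The deposited length column holds exon bases and gave the levels per kb.

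The 20001 names kept by filterByExpr (minimum count 10) were tested with edgeR 4.0.16 in R 4.3.3: TMM scaling, a quasi-likelihood F test on group alone, and p-values adjusted by Benjamini-Hochberg. Alternatives were DESeq2 1.42.0, limma-voom (limma 3.58.1), other scalings and filters, stricter thresholds, a replicate block and each library left out, the last for isoform shares chosen after seeing the data. The test was tested on simulated data. Each library was counted as 1 sample. Counts of libraries of the same group differed beyond sampling noise, with chi-square divided by its degrees of freedom at 59.1 to 258. Separate preparations of the same RNA could also differ in this way, so these values do not show that the libraries are independent samples.

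The members, their 9 roles, 6 lists of other pathway genes and 15 lists of cell markers were chosen with earlier results of these data known. Of 297 entries in these 30 lists, 288 matched by name and 9 through an older or newer name. Values in every library were given for the 3 members of each role with the smallest p (all where a role has 4 or fewer), for members whose paralogue went the other way and for 9 genes set by name; from each other list the 3 called genes with the smallest p were named, with Pkm, Bpgm, Vegfa and Car9. Other values per library, and Vhl, Slc2a6, Slc2a9 and Eno4, were added after seeing the values. Shared sequence was counted as 32-base words of GENCODE M21 transcripts, and promoter sequences are from RefSeq (GRCm38.p6).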

Additional observations from a re-analysis of the deposited data

How the results depend on the processing

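No member was called in the opposite direction under any alternative, and all 11 sign changes were in members that did not pass the test: Hk1 (-0.054 with library totals only, and -0.10 to 0.29 over the libraries left out in turn), Pfkm (-0.023 with library totals only, and -0.11 to 0.31), Ldhb (-0.21 to 0.070), Pdk1 (-0.011 to 0.52) and Txnip (-0.19 to 0.018). Of 1223 values of single genes under an alternative, 1094 kept their direction and side of the threshold, 92 lost the call and 26 gained it. A 1.5-fold threshold left 19 members (15 higher, 4 lower) and 5544 genes, 1856 higher, and an adjusted p under 0.01 left 15 members and 2073 genes higher. Leaving out each library gave 21 to 37 members changed, 15 to 28 higher and 6 to 9 lower, and 6421 to 9436 genes changed, 2536 to 4210 higher and 3870 to 5226 lower; the count of higher members was 15 without control replicate 3 and 16 without control replicate 1. Scaling by library totals alone shifted the median of all genes by -0.12 and gave 18 members higher and 7 lower; DESeq2 gave 27 and 7, limma-voom 24 and 7. The fit with a replicate block, numbers 1 and 2 being shared by control and tumour labels, gave 12 members (9 higher, 3 lower) and 3641 genes (1092 higher, 2549 lower), but same-numbered libraries did not deviate together (correlations -0.18 and -0.01). Shares by read counts instead of counts per kb were 26.8% for Slc2a3 and 26.2% for Pfkl in the controls, and for Eno1 55.9% and 86.6% and for Ldha 66.2% and 89.2% in controls and tumours; the difference follows from exon length. With 3 libraries per group, a member that misses the threshold is not shown to be equal.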
